A study of Mus musculus with 24 samples.

Results

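The odorant receptor genes numbered Olfr828 to Olfr986 were described in the olfactory mucosa of adult mice. A gene was a member if its symbol in the array annotation was Olfr followed by a number in that range. This gave 108 genes, read by 117 probes, of 1071 Olfr genes on the array. All 108 lie on chromosome 9. For 45 of them at least 1 probe was detected on at least 3 of the 21 mucosal arrays, and these 45 were tested. The other 63 are accounted for below.

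Odorant receptors are G protein-coupled receptors of olfactory sensory neurons. Neurons arise from globose basal cells, pass through a Neurog1-expressing precursor and an immature stage, and as mature neurons express Omp. Each mature neuron is thought to transcribe a single receptor gene from a single allele, so that a gene's level in a bulk sort reflects both the number of neurons that chose it and the RNA in each of them. Receptor genes lie in clusters, and the transcription factors Lhx2, Ldb1 and the Ebf family act in receptor choice. Ligands of the receptors described here are not given, since none is recorded in the files.

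RNA was measured on Illumina bead arrays, 3 per group, in mice of 8 to 12 weeks, with 2 to 7 mice pooled per replicate. Sus cells (supporting cells, high GFP, CD54-negative) and Sox2GBC cells (globose basal cells, low GFP, negative for Ecad and CD54, low scatter) came from heterozygous offspring of ∆Sox2-GFP and FVB/NJ mice. Neurog1-OBX and Neurog1-Ctrl cells (GFP-positive, low scatter) came from heterozygous offspring of Neurog1-GFP and FVB/NJ mice, and OMP-OBX and OMP cells (GFP-positive, low scatter) from heterozygous offspring of ∆OMP-GFP and CD-1 mice. In both OBX groups the mucosa was taken from the operated side, 3 weeks after removal of 1 olfactory bulb, the brain target of the neurons. OM is live whole mucosa of wildtype hybrid mice, F1 (129S1/SvImJ x C57BL/6J), every mucosal sample was gated as negative for propidium iodide, and mREF is a reference RNA pooled from 11 cell lines. Mouse line and stage cannot be told apart in the comparisons between stages, whereas each OBX group shares its line with its control. In these pooled bulk samples, fewer neurons that express a receptor and less of its RNA per neuron cannot be told apart.

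Between 33.9% and 48.3% of all probes were detected per array. The sorts were checked against marker lists. Omp itself averaged 13.88 to 15.44 log2 units in every mucosal group, Sox2GBC and Sus included. Neurog1 was detected on all 3 arrays of both Neurog1 groups and on none elsewhere. The 12 immature neuron markers averaged 12.48 in Neurog1-Ctrl and 12.47 in Sox2GBC, so both sorts carried RNA of young neurons at a like level. Mature neuron markers averaged highest in OMP (14.12) and sustentacular markers in Sus (13.59). Precursor and globose basal markers averaged 9.65 in Sox2GBC and 10.06 in Sus. Bowman gland markers averaged 11.33 in Sox2GBC and 8.94 in Neurog1-Ctrl, and microvillar markers 7.90 and 5.62, so Sox2GBC also carried RNA of such cells. No 2 arrays of a group were identical. The spread of the negative control beads, inferred from detection p-values, divided the arrays into 4 noise classes. All OMP-OBX arrays and 1 OMP array fell in the same class, and the other OMP arrays fell in a class each.

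Some members resemble each other in sequence, and the stretches at their starts show how close neighbours can be. The windows printed here, from 250 bases before to 50 bases after the annotated gene start, come from RefSeq, build GRCm38.p6, written 5′ to 3′ on the gene's strand. Capitals mark the start codon at the gene start and the letters TAATTA. Olfr969 and Olfr970, neighbours that were both lower after bulbectomy, share 77.33% of window positions by edit distance.
Olfr969, chr9:39795127-39795426, plus strand: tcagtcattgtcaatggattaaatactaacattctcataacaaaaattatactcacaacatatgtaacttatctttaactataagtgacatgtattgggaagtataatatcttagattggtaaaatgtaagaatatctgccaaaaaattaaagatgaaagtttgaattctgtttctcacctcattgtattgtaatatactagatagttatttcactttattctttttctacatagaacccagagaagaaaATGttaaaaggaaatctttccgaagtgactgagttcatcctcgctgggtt
Olfr970, chr9:39819391-39819690, plus strand: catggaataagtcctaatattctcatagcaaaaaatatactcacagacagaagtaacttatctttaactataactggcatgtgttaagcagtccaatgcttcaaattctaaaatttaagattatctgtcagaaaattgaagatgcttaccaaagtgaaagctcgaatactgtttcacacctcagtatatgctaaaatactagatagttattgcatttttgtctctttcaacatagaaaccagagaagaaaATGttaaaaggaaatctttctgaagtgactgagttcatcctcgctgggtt
Olfr960, Olfr961 and Olfr963 form a trio that did not pass the bulbectomy test. Olfr963 shares 79.67% with Olfr961 and 78% with Olfr960.
Olfr960, chr9:39622875-39623174, plus strand: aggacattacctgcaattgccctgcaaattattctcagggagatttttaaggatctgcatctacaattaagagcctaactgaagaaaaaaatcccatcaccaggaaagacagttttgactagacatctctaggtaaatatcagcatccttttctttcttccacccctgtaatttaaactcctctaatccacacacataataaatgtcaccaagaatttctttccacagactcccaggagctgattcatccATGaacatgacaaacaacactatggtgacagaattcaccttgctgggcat
Olfr961, chr9:39646478-39646777, plus strand: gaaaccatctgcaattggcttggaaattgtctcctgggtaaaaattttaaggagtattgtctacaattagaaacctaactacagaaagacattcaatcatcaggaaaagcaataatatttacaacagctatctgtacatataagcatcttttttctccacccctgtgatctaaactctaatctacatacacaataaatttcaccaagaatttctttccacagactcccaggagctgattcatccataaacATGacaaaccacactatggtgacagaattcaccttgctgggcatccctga
Olfr963, chr9:39668809-39669108, plus strand: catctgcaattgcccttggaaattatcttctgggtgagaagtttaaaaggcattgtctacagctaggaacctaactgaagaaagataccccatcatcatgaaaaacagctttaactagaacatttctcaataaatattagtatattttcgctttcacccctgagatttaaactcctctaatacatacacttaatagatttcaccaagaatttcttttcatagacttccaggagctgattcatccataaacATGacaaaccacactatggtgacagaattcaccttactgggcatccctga
Olfr951 was higher in precursors than in mature neurons. Its window shares 87.67% with that of Olfr954, which was detected on no array, and each holds TAATTA once.
Olfr951, chr9:39393543-39393842, plus strand: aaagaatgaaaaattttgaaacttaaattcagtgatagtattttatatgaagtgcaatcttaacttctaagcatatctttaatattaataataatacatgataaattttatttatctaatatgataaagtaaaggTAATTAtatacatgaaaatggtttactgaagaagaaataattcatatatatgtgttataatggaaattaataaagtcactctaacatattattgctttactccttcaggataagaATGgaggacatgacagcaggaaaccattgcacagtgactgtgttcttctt
Olfr954, chr9:39461183-39461482, plus strand: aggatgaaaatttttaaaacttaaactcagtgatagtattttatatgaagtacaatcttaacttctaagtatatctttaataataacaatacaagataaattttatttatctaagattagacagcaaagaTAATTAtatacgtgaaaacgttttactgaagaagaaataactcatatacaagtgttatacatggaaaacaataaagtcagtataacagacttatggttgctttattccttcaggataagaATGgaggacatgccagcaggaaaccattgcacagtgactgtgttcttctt

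RefSeq windows were found for 93 members, as 94 windows. In 63 of the 94 (67.0%) the annotated gene start is the start codon itself, against 73.2% of windows of other Olfr genes and 5.83% of windows of all genes. For these members the window is the stretch upstream of the coding sequence, and where transcription starts is not given by the table. The letters TAATTA, a core bound by homeodomain proteins such as Lhx2, occurred in 23 of the 94 member windows (24.5%), in 7 of the 38 windows of tested members (18.4%), in 18% of other Olfr windows and in 5.29% of all windows. The letters CCCNNGGG, the core of the site known for Olf1/Ebf factors, occurred in 1 member window (1.06%), that of Olfr983, in 3.29% of other Olfr windows and in 13.7% of all windows. Both motifs read the same on both strands and neither overlaps the other. A match is a description of these letters only. Across the 94 windows, the closest other member's window shared a median of 57.2% and at most 93.7% of positions.

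The 63 untested members were mostly silent on these arrays. No probe of 48 of them was detected on any mucosal array, 7 were detected on 1 array and 8 on 2. On OMP arrays 11 of the 63 were detected at least once, and on arrays of other groups 6. Olfr835, Olfr915, Olfr916, Olfr980 and Olfr986, named after their values were seen, were each detected on 2 OMP arrays and on no other array. Low signal does not show absence of the RNA, since detection depends on the probe and on how few neurons choose each gene.

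Detection of the 117 member probes followed the neuronal sorts. Sus arrays detected 2, 0 and 1 of the 117 and Sox2GBC arrays 10, 19 and 11. Neurog1-OBX arrays detected 9, 21 and 23, and Neurog1-Ctrl arrays 30, 28 and 30. OMP-OBX arrays detected 20, 16 and 15, and OMP arrays 55, 43 and 49. OM arrays detected 36, 22 and 27, and the mREF arrays, which hold no olfactory RNA, 1, 2 and 1. Every OMP-OBX array thus lay below every OMP array. Of all probes, OMP-OBX arrays detected 38.6%, 36.7% and 37.9%, and OMP arrays 46.0%, 38.2% and 36.5%. Of the 1159 probes of other Olfr genes, 403, 328 and 343 were detected on OMP-OBX arrays and 668, 538 and 583 on OMP arrays.

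**Figure D1:**
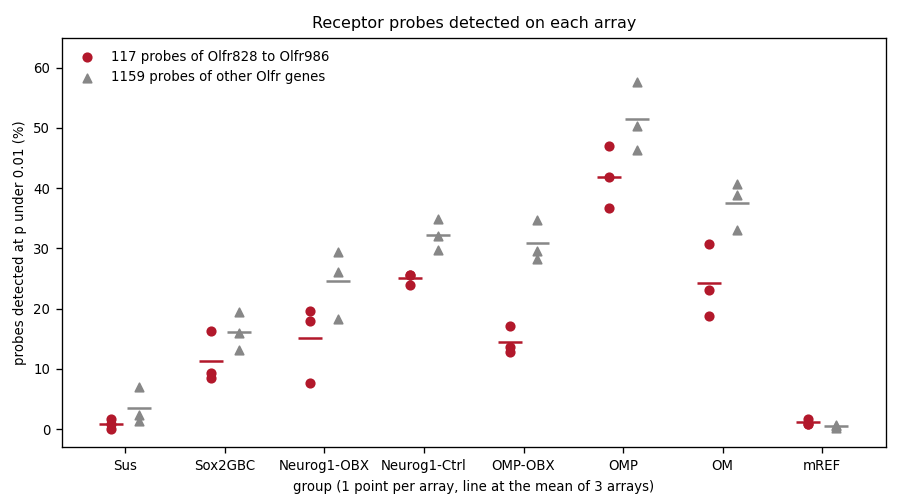
Share of receptor probes detected at p under 0.01 on each array, in percent, by group, for the 117 probes of Olfr828 to Olfr986 (circles) and the 1159 probes of other Olfr genes (triangles), with lines at group means. The OMP arrays are highest and the Sus and mREF arrays lie near 0.

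Of the 45 tested members, 38 had their highest group mean in OMP, 6 in Neurog1-Ctrl and 1, Olfr873, in Sox2GBC. The filter fixes part of this tally, since 15 of the 45 were detected on fewer than 3 of the 18 arrays outside OMP and passed only through OMP arrays. Of the other 30, 24 had their highest mean in OMP, 5 in Neurog1-Ctrl and 1 in Sox2GBC. Averaged over the 45, the log2 level of single arrays ran from 5.45 to 5.59 in Sox2GBC, 5.98 to 6.31 in Neurog1-Ctrl and 6.57 to 7.35 in OMP. It ran from 5.31 to 5.70 in OMP-OBX, 5.43 to 5.80 in Neurog1-OBX, 4.73 to 4.83 in Sus and 5.53 to 6.16 in OM. OMP replicate 3 stood above its group, holding the highest OMP value for 32 of the 45 members. Counts that involve OMP are therefore also given without it, and, by an alternative added after the data were seen, with the filter applied to arrays outside OMP.

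**Figure D2:**
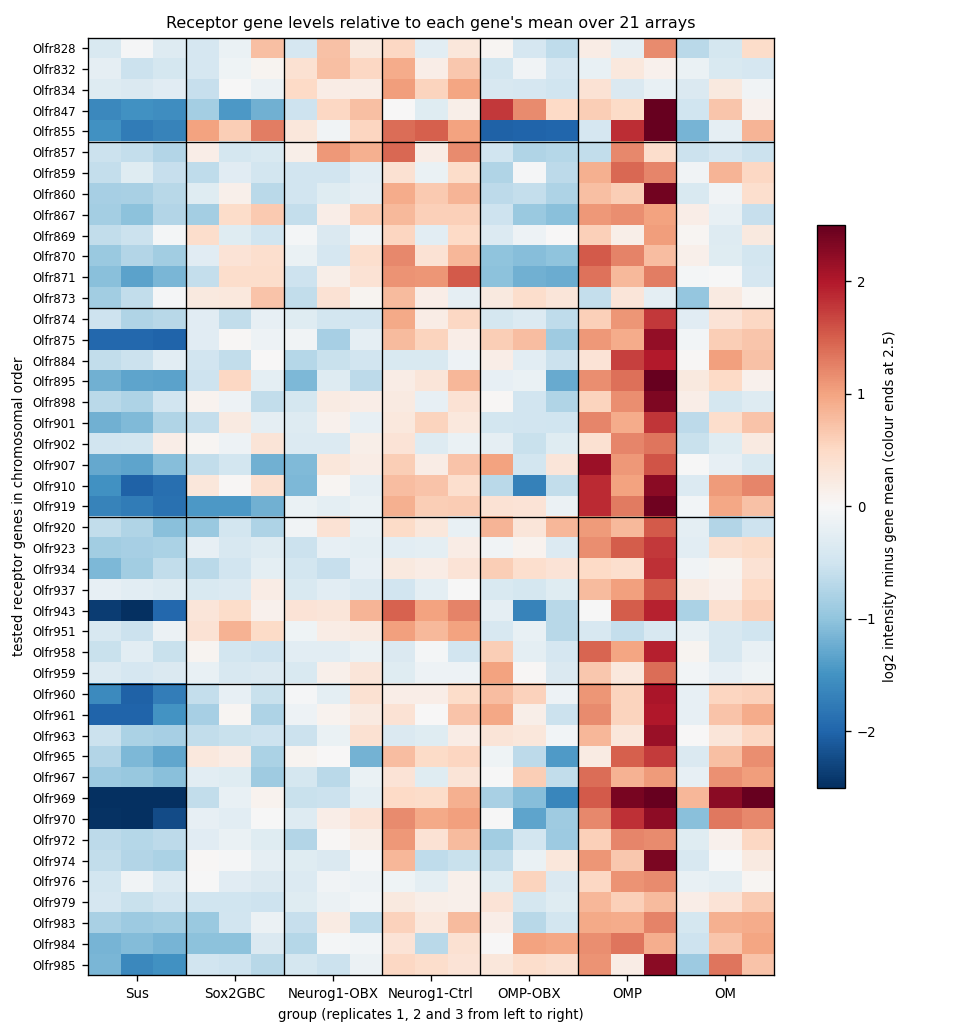
Log2 level of each of the 45 tested members (rows, in chromosomal order, with lines between neighbour runs) on each of the 21 mucosal arrays (columns, by group), minus the gene's own mean over the arrays. Most rows are highest in OMP, where replicate 3 is the strongest column, and Olfr951, Olfr834 and Olfr832 are highest in Neurog1-Ctrl.

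The first step of the lineage sets Neurog1-Ctrl against Sox2GBC. Here 12 of the 45 members were higher and 0 lower, where 8.02% of all 11870 genes tested were higher and 9.09% lower. Calls are at an adjusted p under 0.05 in limma, adjusted over all genes. At an unadjusted p under 0.05 in limma, 23 members were higher and 0 lower, against 1752 higher and 1762 lower of all 11870 genes. The median member difference was 0.67 log2, against 0.70 for the 535 other Olfr genes tested and -0.00115 for all genes. The called members were Olfr832, Olfr834, Olfr857, Olfr860, Olfr871, Olfr874, Olfr907, Olfr919, Olfr920, Olfr972, Olfr979 and Olfr983. Olfr832 and Olfr834 would not have passed the filter without Neurog1-Ctrl arrays, which partly fixes their direction. Olfr979 was detected on no array of either group, so its difference lies below detection, and Olfr874 on 1 Neurog1-Ctrl array. Both passed the filter only through OMP arrays. Of the 12 calls, 3 held when replicate 1 of Neurog1-Ctrl was left out and 6 when its replicate 3 was.

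Olfr919 was undetected in the earlier stage. Its log2 levels were 7.30, 7.04 and 7.05 in Neurog1-Ctrl, against 4.97, 4.98 and 5.22 in Sox2GBC. The groups lie well apart, by 2.07 ± 0.26 log2 (SE, limma adjusted p = 4.67e-05), which is at least 2.19-fold. Such a bound sets the mean of the higher group against the lowest signal that counted as detected on the arrays of the lower group. A second, dimmer Olfr919 probe, detected on 4 arrays, differed by only 0.31. Olfr907 rose by 1.26 ± 0.37 (limma adjusted p = 0.0221), Olfr871 by 1.16 ± 0.27 (limma adjusted p = 0.00523) and Olfr972 by 0.99 ± 0.26 (limma adjusted p = 0.0112). Olfr860 (1.09) and Olfr983 (1.08), like Olfr907, were not called under 5 or 6 of 16 alternatives.

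The second step sets mature neurons against precursors and young neurons. In OMP, 23 of the 45 members were higher and 3 lower than in Neurog1-Ctrl, where 17.9% of all genes were higher and 18.2% lower. The median member difference was 0.89, against 0.76 for other Olfr genes, of which 250 of 535 were higher and 30 lower. Without OMP replicate 3, 14 members were higher and 2 lower, and the median was 0.56. With the filter on arrays outside OMP, 12 of 30 were higher and 2 lower.

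Olfr958 had 6.54, 6.07 and 7.03 in OMP, against 4.73, 5.04 and 4.61 in Neurog1-Ctrl, where no array detected it. The difference was 1.76 ± 0.26 (limma adjusted p = 4.32e-05), at least 1.57-fold. Olfr969 had 9.63, 10.47 and 11.17 in OMP, against 8.59, 8.56 and 8.98 in Neurog1-Ctrl, a difference of 1.71 ± 0.40 (limma adjusted p = 0.0025). Every OMP array was above every Neurog1-Ctrl array for both genes. Olfr958, detected on 2 of the 18 arrays outside OMP, passed the filter only through OMP arrays, which partly fixes its direction.

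Olfr923 and Olfr937 were detected on every OMP array and on no Neurog1-Ctrl array. Detected on 2 and 1 of the 18 arrays outside OMP, they passed the filter only through OMP arrays, which partly fixes their direction. Olfr923 had 6.59, 6.95 and 7.20 in OMP, against 5.16, 5.17 and 5.61 in Neurog1-Ctrl, a difference of 1.60 ± 0.21 (limma adjusted p = 1.12e-05), at least 2.02-fold. Olfr937 had 5.71, 5.94 and 6.45 in OMP, against 4.43, 4.67 and 4.91 in Neurog1-Ctrl, a difference of 1.36 ± 0.20 (limma adjusted p = 3.31e-05), at least 1.10-fold. Neither overlapped between the groups. Olfr884 (1.63), Olfr974 (1.49), Olfr895 (1.46) and Olfr847 (1.34) also rose. Of these, Olfr847 was not called under 7 of 16 alternatives. Among those alternatives was the fit without OMP replicate 3, which also ended the call of Olfr895. Olfr974, detected on 1 array outside OMP, also passed the filter only through OMP arrays.

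Olfr951, Olfr834 and Olfr832 were the exceptions, lower in OMP than in Neurog1-Ctrl. They would not have passed the filter without Neurog1-Ctrl arrays, which partly fixes their direction. Olfr951 had 4.70, 4.51 and 4.71 in OMP, against 6.13, 5.92 and 6.10 in Neurog1-Ctrl. Sox2GBC arrays held 5.45, 5.98 and 5.59. It was detected on 3 of 3 Neurog1-Ctrl arrays and on no OMP array, and fell by 1.41 log2 (SE 0.18, limma adjusted p = 8.74e-06), which is at least 1.39-fold lower in OMP. OM arrays held 4.91, 4.69 and 4.60, close to the OMP level. Olfr834 fell by 0.92 (limma adjusted p = 0.0023) and Olfr832 by 0.53 (limma adjusted p = 0.0494). Because the Neurog1 and Sox2 lines were crossed to FVB/NJ and the OMP line to CD-1, strain and stage cannot be told apart for these genes.

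**Figure D3:**
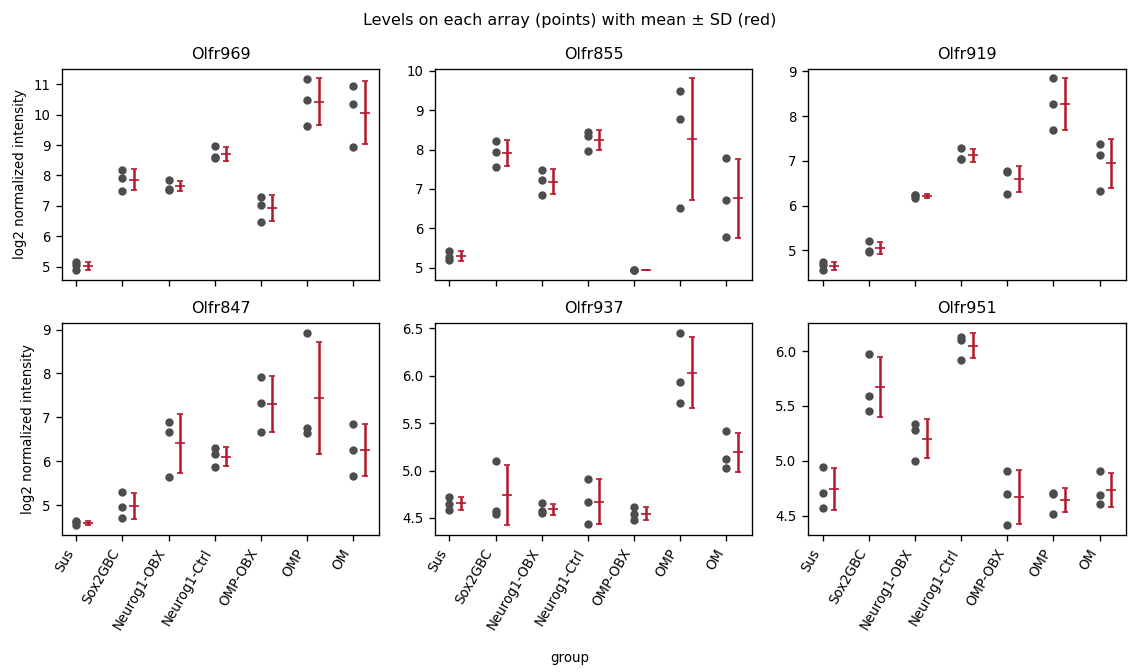
Log2 normalized intensity of 6 members on each mucosal array, by group (points, 3 per group), with mean ± SD in red. Olfr855 sits at 4.93 to 4.95 on the OMP-OBX arrays, Olfr847 overlaps between OMP-OBX and OMP, and Olfr951 is highest in Neurog1-Ctrl. Axes differ between panels, since levels of different probes are not comparable.

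Over the whole lineage, OMP against Sox2GBC, 37 of 45 members were higher and 1, Olfr951, was lower, where 47.0% of all genes were called, 22.7% higher and 24.2% lower. The median was 1.52, against 1.50 for other Olfr genes, of which 435 of 535 were higher. Without OMP replicate 3 the split was 34 higher and 1 lower, and with the filter on arrays outside OMP it was 24 higher and 1 lower of 30. Olfr919 differed by 3.22 ± 0.26 (limma adjusted p = 3.23e-08), with 8.27, 7.70 and 8.85 in OMP, at least 4.84-fold above Sox2GBC, while its dimmer probe differed by 1.30. Olfr969 (2.57), Olfr847 (2.46), Olfr907 (2.36), Olfr895 (1.98), Olfr984 (1.94), Olfr970 (1.92) and Olfr920 (1.85) followed. Olfr951 fell by 1.03 (limma adjusted p = 0.000126).

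For 6 members the highest group mean lay in Neurog1-Ctrl: Olfr832, Olfr834, Olfr857, Olfr871, Olfr943 and Olfr951. For Olfr943, Olfr871 and Olfr857 this order does not hold beyond the spread. The others, Olfr832, Olfr834 and Olfr951, would not have passed the filter without Neurog1-Ctrl arrays. Olfr943 had 7.65, 9.17 and 9.57 in OMP, against 9.13, 8.66 and 8.89 in Neurog1-Ctrl, which overlap. Olfr871 had 7.13, 6.59 and 7.06 in OMP, against 6.91, 6.89 and 7.31 in Neurog1-Ctrl. Olfr873, highest in Sox2GBC with 6.17, 6.17 and 6.63, had 6.71, 6.08 and 5.70 in Neurog1-Ctrl and 5.32, 6.21 and 5.66 in OMP, and passed the test in none of these steps.

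Bulbectomy was followed by a broad loss in the mature neuron sort. In OMP-OBX 29 of the 45 members were lower than in OMP and 0 higher, where 8.67% of all genes were called, 4.43% lower and 4.24% higher. At an unadjusted p under 0.05 in limma, 34 were lower and 0 higher, against 1255 lower and 1260 higher of all 11870 genes. The median member difference was -1.36 log2 (-0.01 over all genes), and 43 of 45 members had a negative difference. Of the other Olfr genes 212 of 535 were lower and 19 higher, with a median of -0.85, and whether the members differ from them was not tested. Of the 29 called members, 18 were detected on no OMP-OBX array. Over the 45 members, 25 were detected on no array of OMP-OBX, against 2 in OMP. The filter fixes part of this contrast, since 15 of the 45 passed only through OMP arrays.

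Without OMP replicate 3 the count was 24 lower and the median -1.23. With the authors' own normalized values the count was again 29, with a median of -0.72. Fitted on the OMP-OBX and OMP arrays alone, 19 were lower, where 5.91% of all genes were called. With the filter on arrays outside OMP, 19 of 30 were lower. Within the noise class that holds all OMP-OBX arrays, only OMP replicate 3 can be set against them, the array that stood above its group, and the median over the 45 was then -1.84.

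Among members detected on every array of both groups, Olfr969 had the largest difference. Its levels were 7.29, 7.03 and 6.46 in OMP-OBX, against 9.63, 10.47 and 11.17 in OMP. The lowest OMP array lay above the highest OMP-OBX array, and the difference was -3.50 ± 0.40 (limma adjusted p = 1.75e-05). Its neighbour Olfr970 had 7.45, 6.14 and 6.58 in OMP-OBX, against 8.66, 9.29 and 9.69 in OMP, a difference of -2.49 ± 0.45 (limma adjusted p = 0.00123). Both stayed detected on all OMP-OBX arrays.

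Olfr855 left the detectable range. It had 4.93, 4.94 and 4.95 in OMP-OBX, all undetected, against 6.52, 8.79 and 9.48 in OMP, a difference of -3.32 ± 0.52 (limma adjusted p = 0.00034), at least 5.77-fold lower. Its second probe gave -2.74. OMP replicate 1, at 6.52, was far below the other OMP arrays but above every OMP-OBX array.

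Olfr870 and Olfr871, both from the Olfr857 to Olfr873 run, had little spread. Olfr870 had 4.57, 4.49 and 4.56 in OMP-OBX, against 7.09, 6.80 and 6.33 in OMP (-2.20 ± 0.26, limma adjusted p = 2.73e-05). Olfr871 had 4.77, 4.59 and 4.54 in OMP-OBX, against 7.13, 6.59 and 7.06 in OMP (-2.29 ± 0.27, limma adjusted p = 2.03e-05). Neither was detected on an OMP-OBX array, and the folds are at least 2.01 for Olfr870 and 2.28 for Olfr871.

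Olfr910 had 6.30, 5.28 and 6.35 in OMP-OBX, against 8.83, 7.98 and 9.23 in OMP (-2.70 ± 0.40, limma adjusted p = 0.000181). Olfr895 had 5.58, 5.62 and 4.52 in OMP-OBX, against 6.95, 7.17 and 8.93 in OMP (-2.44 ± 0.41, limma adjusted p = 0.000593). The arrays of both genes were separate. Olfr943 differed by -2.00 ± 0.43 (limma adjusted p = 0.0057) and stayed detected on every OMP-OBX array, but was not called when only these 2 groups were fitted.

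The members lie in 5 runs of neighbouring Olfr genes, by RefSeq order, with no other protein-coding gene inside a run, plus Olfr986 alone. The runs were defined after the values were seen, so their counts are a description. In the Olfr874 to Olfr919 run 10 of 10 tested members were lower in OMP-OBX than in OMP (median -1.65). Of these 10, Olfr874, Olfr898 and Olfr902 passed the filter only through OMP arrays, so their place in the tally partly follows from the filter, and the other 7 were called as well. In the Olfr857 to Olfr873 run 5 of 8 were lower (median -1.78), in the Olfr960 to Olfr985 run 9 of 14 (median -1.09) and in the Olfr920 to Olfr959 run 4 of 8 (median -1.01). In the Olfr828 to Olfr855 run only Olfr855 of 5 was lower (median -0.38), and 3 of these 5 were detected on at least 3 arrays outside OMP.

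**Figure D4:**
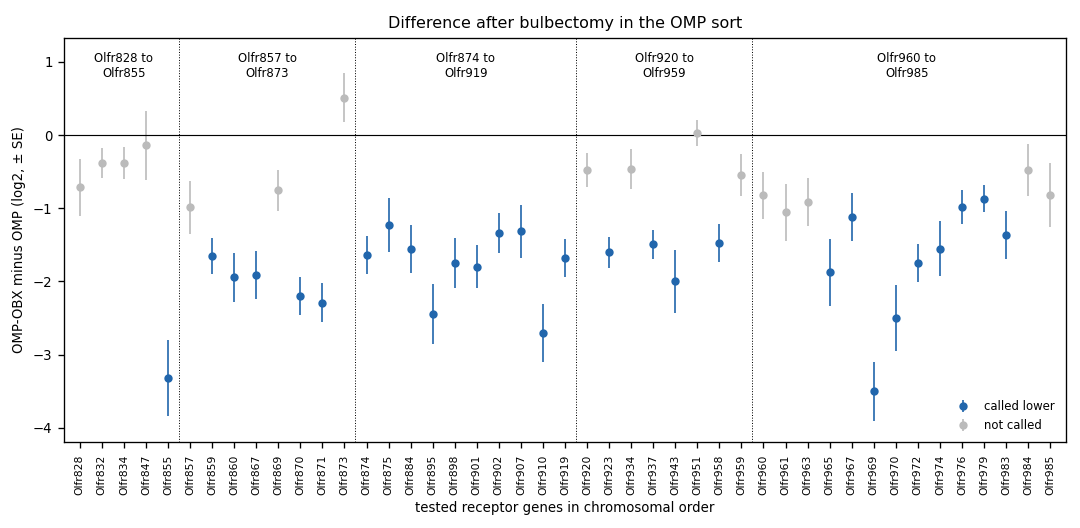
Log2 difference OMP-OBX minus OMP with its SE for the 45 tested members, in chromosomal order, with dotted lines between neighbour runs; blue points were called lower and grey points were not called. Olfr969 and Olfr855 lie lowest, at -3.50 and -3.32, and all 10 members of the Olfr874 to Olfr919 run were called.

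The 16 members that were not called included brightly detected ones. Olfr847 had 7.92, 7.33 and 6.66 in OMP-OBX, against 6.77, 6.65 and 8.92 in OMP, a difference of -0.14 ± 0.47 (limma adjusted p = 0.909), with overlapping arrays. Olfr960 had 7.53, 7.34 and 6.63 in OMP-OBX, against 7.86, 7.31 and 8.81 in OMP (-0.82 ± 0.32, limma adjusted p = 0.122). Olfr961 had 7.66, 6.82 and 6.15 in OMP-OBX, against 7.86, 7.24 and 8.69 in OMP (-1.05 ± 0.39, limma adjusted p = 0.107). These trio members overlapped between groups. Olfr963 differed by -0.91 ± 0.33 (limma adjusted p = 0.102). Olfr984 (-0.48), Olfr920 (-0.48), Olfr934 (-0.46) and Olfr985 (-0.82) were detected on all arrays of both groups. The only positive differences were those of Olfr873 (0.51 ± 0.33, limma adjusted p = 0.423) and Olfr951 (0.03 ± 0.18), and neither passed the test. A missed threshold does not show that a gene kept its level.

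Markers of neuronal stage moved in the same comparison. Of 12 immature neuron markers 6 were higher in OMP-OBX than in OMP and 0 lower, with 9 higher at an unadjusted p under 0.05 in limma. Gap43, a growth cone protein, differed by 3.38 and Stmn1, a tubulin-binding protein, by 3.37. The 12 averaged 11.16 to 11.44 per OMP-OBX array and 9.37 to 10.18 per OMP array. Of 12 mature neuron markers 2 were lower, with 5 lower and 0 higher at an unadjusted p under 0.05 in limma. All 12 differences were negative, and the 12 averaged 13.42 to 13.66 per OMP-OBX array and 14.07 to 14.17 per OMP array. The Omp probe lay near 15 log2 units in both groups and in Sox2GBC, so it does not order these groups. Of 10 tested precursor markers 2 were higher, and of 8 sustentacular markers 0 were called, 3 being lower at an unadjusted p under 0.05 in limma. The part of these shifts in the receptor losses was not tested.

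Genes of receptor choice, trafficking and signalling gave a narrower picture. Of 30 tested, 3 were lower in OMP-OBX than in OMP and 0 higher, with 7 lower and 0 higher at an unadjusted p under 0.05 in limma. Those lower were Adcy3, the cyclase of odorant signalling (-1.27, limma adjusted p = 0.0052), Reep1, a receptor expression-enhancing protein (-1.03, limma adjusted p = 0.00192), and Cngb1, a subunit of the signalling channel (-0.83, limma adjusted p = 0.0223). Lhx2 (-0.10), Ldb1 (-0.11) and Rtp1 (-0.28), a receptor chaperone, were not called. In the maturation step, OMP against Neurog1-Ctrl, 13 of the 30 were higher, Adcy3 (2.38) and Reep1 (2.14) among them, and 4 lower, Lhx2 (-0.72) and Ldb1 (-0.81) among them.

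In the precursor sort bulbectomy was followed by fewer calls. In Neurog1-OBX 2 of 45 members were lower than in Neurog1-Ctrl and 0 higher, where 0.202% of all genes were lower and 0.194% higher. At an unadjusted p under 0.05 in limma, 17 members were lower and 0 higher, against 675 lower and 553 higher of all 11870 genes. Of the 535 other Olfr genes, 119 were lower and 5 higher by the same rule. The median member difference was -0.56, against -0.40 for other Olfr genes. Olfr871 had 5.27, 5.93 and 6.14 in Neurog1-OBX, against 6.91, 6.89 and 7.31 in Neurog1-Ctrl (-1.26 ± 0.27, limma adjusted p = 0.0441). Olfr951 had 4.99, 5.28 and 5.33 in Neurog1-OBX, against 6.13, 5.92 and 6.10 in Neurog1-Ctrl (-0.85 ± 0.18, limma adjusted p = 0.0473). The arrays of both genes were separate, yet both calls were lost in limma when any 1 of the 6 arrays was left out. With the replicate number as a block, 0 members were called. Olfr951 would not have passed the filter without Neurog1-Ctrl arrays, which partly fixes its direction.

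The lesion effect in the OMP sort was set against that in the Neurog1 sort by a single contrast. For 4 of 45 members the effect was more negative in the OMP sort and for 0 more positive, where 0.708% of all genes were more negative and 1.27% more positive. At an unadjusted p under 0.05 in limma, 19 members were more negative and 1 more positive. Of all 11870 genes, 853 were more negative and 1010 more positive by that rule. The 4 were Olfr969 (-2.44 ± 0.57, limma adjusted p = 0.0308), Olfr958 (-1.53 ± 0.37, limma adjusted p = 0.038), Olfr937 (-1.41 ± 0.28, limma adjusted p = 0.0133) and Olfr923 (-1.39 ± 0.30, limma adjusted p = 0.02). For Olfr937 the arrays held 4.55, 4.48 and 4.61 in OMP-OBX, against 5.71, 5.94 and 6.45 in OMP. Its Neurog1-OBX arrays held 4.55, 4.65 and 4.57, against 4.43, 4.67 and 4.91 in Neurog1-Ctrl, all undetected. Only the OMP arrays stand out. Olfr937, Olfr958 and Olfr923 were detected on 1, 2 and 2 of the 18 arrays outside OMP and so passed the filter only through OMP arrays, which partly fixes their direction. Without OMP replicate 3 the count was 3, all more negative. With the filter on arrays outside OMP, 1 of 30 members, Olfr969, was called. The call of Olfr937 was lost only with the authors' values, of 20 alternatives, that of Olfr958 under 14 of 20, that of Olfr923 under 5 of 20 and that of Olfr969 under 8 of 22.

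The maturation step after bulbectomy used arrays that the normal step does not. In OMP-OBX 1 of 45 members was higher than in Neurog1-OBX and 8 lower, where 12.7% of all genes were higher and 12.3% lower. The median was 0.01, against 0.28 for other Olfr genes, of which 124 of 535 were higher and 30 lower. The member higher in OMP-OBX was Olfr934, with 6.29, 6.10 and 6.01 in OMP-OBX, against 5.21, 5.09 and 5.47 in Neurog1-OBX (0.87 ± 0.27, limma adjusted p = 0.024), a call lost under 7 of 16 alternatives. Those lower were Olfr832, Olfr834, Olfr855, Olfr857, Olfr870, Olfr871, Olfr943 and Olfr951. Of these, Olfr834 and Olfr951 were detected on no array of either group, so their differences lie below detection. Olfr855 had 4.93, 4.94 and 4.95 in OMP-OBX, against 7.23, 6.85 and 7.48 in Neurog1-OBX (-2.25 ± 0.52, limma adjusted p = 0.00365), at least 2.74-fold lower, and its second probe gave -1.08. Olfr943 had 7.44, 5.99 and 6.96 in OMP-OBX, against 8.00, 7.95 and 8.51 in Neurog1-OBX (-1.36 ± 0.43, limma adjusted p = 0.0276). Every array of both genes was lower in OMP-OBX. The contrast of this step with the normal step is the same as the lesion contrast above.

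**Figure D5:**
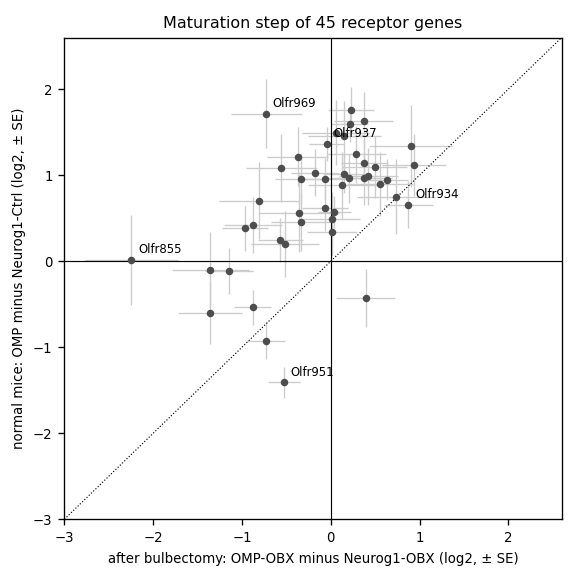
Maturation step of each of the 45 tested members in log2 units with SE: after bulbectomy (OMP-OBX minus Neurog1-OBX, horizontal) and in normal mice (OMP minus Neurog1-Ctrl, vertical), with a dotted line where both are equal. The medians are 0.01 after bulbectomy and 0.89 in normal mice, and Olfr855 lies farthest left, at -2.25.

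Sus cells, which are not neurons, were set against OMP. In Sus 40 of 45 members were lower than in OMP and 0 higher, where 59.9% of all genes were called, 30.9% lower and 29.1% higher. At an unadjusted p under 0.05 in limma, 41 were lower and 0 higher, against 3897 lower and 3640 higher of all 11870 genes. Without OMP replicate 3 the count was 39 lower. With the filter on arrays outside OMP, 27 of 30 were lower. No member was detected on all 3 Sus arrays and 42 on none. Olfr969 had 5.06, 4.87 and 5.14 in Sus, against 9.63, 10.47 and 11.17 in OMP (-5.40 ± 0.40, limma adjusted p = 1.23e-09), at least 26.6-fold lower. Olfr970 was at least 11.5-fold lower, Olfr943 at least 8.59-fold and Olfr919 at least 5.99-fold. The members not called were Olfr828, Olfr832, Olfr834, Olfr873 and Olfr951.

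The OMP sort was also set against whole mucosa. In OMP 23 of 45 members were higher than in OM and 0 lower, where 7.54% of all genes were higher and 12.9% lower. At an unadjusted p under 0.05 in limma, 32 were higher and 0 lower, against 1972 higher and 2073 lower of all 11870 genes. The median was 0.92, against 0.80 for other Olfr genes. Olfr907 had 7.97, 6.90 and 7.39 in OMP, against 5.81, 5.61 and 5.45 in OM (1.80 ± 0.37, limma adjusted p = 0.00187). Olfr920 had 6.72, 6.47 and 7.18 in OMP, against 5.41, 4.92 and 5.15 in OM (1.63 ± 0.24, limma adjusted p = 0.000112). Neither overlapped. Olfr958 (1.64), Olfr895 (1.61), Olfr898 (1.55), Olfr855 (1.50), Olfr974 (1.44) and Olfr870 (1.39) were also called. Olfr958, Olfr898 and Olfr974, detected on 2, 1 and 1 arrays outside OMP, passed the filter only through OMP arrays, which partly fixes their direction. Fitted on the OMP and OM arrays alone, 8 were higher, where 8.18% of all genes were called. With the filter on arrays outside OMP, 13 of 30 were higher. Without OMP replicate 3 the count was 12, and Olfr895, Olfr855 and Olfr974 lost their calls. Olfr969 was nearly as bright in OM, with 8.93, 10.34 and 10.95, and its groups overlapped. OM and OMP also differ in mouse line.

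For 9 members the array carries more than 1 probe, and the brightest was read. The second probes of Olfr960 and Olfr979 were detected on no array. Olfr985 differed by 0.75 between OMP and Neurog1-Ctrl by its brightest probe and by 2.39 by the other, and by -0.82 and -1.65 between OMP-OBX and OMP. Olfr961 gave -1.05 and -1.39 in that comparison and Olfr919 gave -1.68 and -1.33. For Olfr855 the probes disagreed on the maturation step in normal mice, at 0.02 and 1.25. Probes of neighbours as alike as those printed above could bind RNA of both, and this was not tested.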

How the data were processed

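RNA of 24 samples was hybridised to Illumina bead arrays with 45281 probes. The deposited table holds background-subtracted bead intensity values from GenomeStudio, per the submitters' processing notes, and a detection p-value per probe and array, as deposited by the authors. The deposited intensity values normalized by the authors served as an alternative. 1 OMP column is numbered 4 and was taken as replicate 3.

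The normexp method of limma 3.58.1 (R 4.3.3), run from the detection p-values with an offset of 16, corrected the background, and quantile normalization and log2 followed. Genes needed a probe detected at p under 0.01 on at least 3 of 21 mucosal arrays, and the brightest probe was read. All 7 mucosal groups were fitted together (14 residual degrees of freedom), and 9 contrasts were tested with Benjamini-Hochberg adjustment over 11870 genes at 0.05. The fit was checked on simulated data. Whether labelled replicates came from separate dissections is not stated, so p-values measure the spread between these samples. The number of arrays limits the precision.

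The members, gene lists and alternatives were chosen with earlier results of these data known. Named members were the 10 with the highest OMP mean, up to 8 called rises and 8 called falls per comparison with 3 of 3 detected arrays in the higher group, the lesion calls, members whose probes disagree and up to 6 members highest outside OMP. The other marker lists were horizontal basal cells, Bowman glands, microvillar cells, immune cells and stroma, of which 0 genes were called in OMP-OBX against OMP in limma, with 2 horizontal basal markers lower at an unadjusted p under 0.05. Only for OMP and OM did every correlation of same-numbered deviations exceed 0.1 (0.53, 0.11 and 0.25). These groups come from different mouse lines, so this does not pair their mice. Their replicates 1 share a noise class, as do their replicates 2, and the part of this in the correlations was not tested. Window identity came from edlib 1.3.9.post1 and figures from matplotlib 3.10.9 in Python 3.11.15. Alternatives were other background, normalization, filter and probe rules, fits of the compared groups only, the replicate number and the noise class as blocks, and each array left out.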

Additional observations from a re-analysis of the deposited data

Results flagged for a closer look

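For 4 members the effect of bulbectomy in the OMP sort differed from that in the Neurog1 sort by a contrast of the effects in limma. The difference of effects, OMP minus Neurog1, was -2.44 log2 for Olfr969, -1.53 for Olfr958, -1.41 for Olfr937 and -1.39 for Olfr923. Olfr969 had 7.29, 7.03 and 6.46 in OMP-OBX, against 9.63, 10.47 and 11.17 in OMP. It had 7.53, 7.57 and 7.86 in Neurog1-OBX, against 8.59, 8.56 and 8.98 in Neurog1-Ctrl, a difference that was not called (-1.06, limma adjusted p = 0.324). Olfr958 had 5.71, 4.85 and 4.67 in OMP-OBX, against 6.54, 6.07 and 7.03 in OMP. Its Neurog1-OBX arrays held 4.82, 4.81 and 4.91, against 4.73, 5.04 and 4.61 in Neurog1-Ctrl. Olfr923 had 5.34, 5.51 and 5.09 in OMP-OBX, against 6.59, 6.95 and 7.20 in OMP, and 4.88, 5.23 and 5.18 in Neurog1-OBX, against 5.16, 5.17 and 5.61 in Neurog1-Ctrl. Olfr958, Olfr937 and Olfr923 were not detected on any array of either Neurog1 group, so their Neurog1 values are near the floor of the probes, and all 3 passed the filter only through OMP arrays.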

How the results depend on the processing

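No named result changed direction: of 898 values for 56 named member results, 802 kept their call and 96 lost it. Member counts within 1.5 times the main count are not listed. The stricter filter, which tests 27 members, gave 7 calls in Neurog1-Ctrl against Sox2GBC, 12 in OMP against Neurog1-Ctrl, 24 in OMP against Sox2GBC, 5 in OMP-OBX against Neurog1-OBX, 19 in OMP-OBX against OMP, 1 in Neurog1-OBX against Neurog1-Ctrl, 1 in the lesion contrast, 26 in Sus against OMP and 13 in OMP against OM. The filter on arrays outside OMP, added after seeing the data, gave 14, 25, 19, 1 and 13 calls among 30 members in OMP against Neurog1-Ctrl, OMP against Sox2GBC, OMP-OBX against OMP, the lesion contrast and OMP against OM. Fits of the compared groups alone gave 20, 19, 5 and 8 calls in Neurog1-Ctrl against Sox2GBC, OMP-OBX against OMP, Neurog1-OBX against Neurog1-Ctrl and OMP against OM. Over all genes these fits called 25.2%, 5.91%, 1.53% and 8.18%, against 17.1%, 8.67%, 0.396% and 20.5% in the main fit. The authors' values gave 6, 0 and 2 in Neurog1-Ctrl against Sox2GBC, Neurog1-OBX against Neurog1-Ctrl and the lesion contrast. In Neurog1-OBX against Neurog1-Ctrl, no background correction gave 0 and no filter 1. With noise class as a block that comparison gave 4 and the lesion contrast 11. In limma, counts of 0 for this comparison had 13 to 17 members at an unadjusted p under 0.05 under these settings. The cause of these shifts was not tested, nor was the part of the fewer genes or arrays in some filters and fits.

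Leaving out 1 array gave 3 to 15 calls in Neurog1-Ctrl against Sox2GBC, 16 to 30 in OMP against Neurog1-Ctrl, 35 to 40 in OMP against Sox2GBC, 6 to 9 in OMP-OBX against Neurog1-OBX, 24 to 33 in OMP-OBX against OMP, 0 to 0 in Neurog1-OBX against Neurog1-Ctrl (9 to 17 unadjusted in limma), 1 to 7 in the lesion contrast, 39 to 41 in Sus against OMP and 12 to 26 in OMP against OM. Over all genes these fits called 9.85% to 14.2% in Neurog1-Ctrl against Sox2GBC and 5.54% to 8.27% in OMP-OBX against OMP. They called 0.0674% to 0.236% in Neurog1-OBX against Neurog1-Ctrl and 12.1% to 19.8% in OMP against OM. In the lesion contrast they called 0.893% to 2.35%, against 1.98% in the main fit. The lesion contrast fell to 1 member without Neurog1-Ctrl replicate 1 or 2, Neurog1-OBX replicate 2 or 3, or OMP-OBX replicate 3. It fell to 2 without OMP-OBX replicate 2, and reached 7 without OMP replicate 1. Under cyclic loess 60.4% of calls over all genes in OMP against Neurog1-Ctrl were higher, against 49.7% in the main setting, and the median gene moved to 0.14.

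With the replicate number as a block, Neurog1-OBX against Neurog1-Ctrl gave 0 calls (17 unadjusted in limma) and OMP-OBX against OMP 27. OMP against OM, where deviations of same-numbered arrays correlated although the mouse lines differ, gave 22. The block changed no other count by over 1.5 times. Signal over background limits these results, since most receptor probes lie near the detection limit and bounds understate the folds.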
